A study of Oryza sativa with 12 samples.

Results

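Developing seeds of 2 transgenic rice lines, 35S-15 and GR14, were compared directly, with 3 Affymetrix rice arrays for each line. The labels call both lines transgenic and high in seed lysine, give the age as 10 days after flowering (the series' design text gives 15), and say that the plants grew in a field. The series as a whole has 12 arrays. Its other groups are the wild type Wuxiangjiang9 (WT, labelled normal in lysine) and the high-lysine line HFL1. Neither entered the main comparison. Some alternative settings used them in the filter or the variance estimate, and otherwise they are quoted beside some genes as levels. No label ties the 3 arrays of a line to separate plants; p-values therefore reflect array-to-array spread alone, part or all of which may be technical. Time of day at collection is not labelled, nor is whether a line stands for more than 1 transformation event.

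Lysine is the amino acid that limits the nutritional value of cereal grain. Plants make it from aspartate, in a plastid pathway whose early enzymes are inhibited by lysine itself, and break it down through the bifunctional enzyme LKR/SDH. Earlier work on these lines, not the labels, describes 35S-15 as carrying bacterial enzymes of lysine synthesis that lysine does not inhibit, under the constitutive 35S promoter. It describes GR14 as carrying an RNA interference construct against LKR/SDH under an endosperm promoter, and HFL1 as combining both. Both lines compared thus raise lysine, by synthesis in one and by slower breakdown in the other. LKR/SDH, the lysine synthesis enzyme DHDPS (dihydrodipicolinate synthase) and the transgenes were not analysed here, because no gene symbol identified them. At this age a rice seed holds a filling endosperm, an embryo, an aleurone layer and a green outer pericarp that photosynthesizes.

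Each array reports a MAS5 signal intensity for every probe set, a group of short probes against 1 transcript, and log2 of that signal is called the level below. A difference is the mean level in 35S-15 minus the mean level in GR14, so 1 unit is a 2-fold change, and errors of differences are standard errors (SE) of the fit. Spearman correlations between arrays of the same line were 0.958 to 0.969 and those between arrays of different lines 0.927 to 0.946. Endosperm markers were at the top of the scale in both lines, with GLUA-1, a glutelin storage protein gene, at 16.06 in 35S-15 and 15.95 in GR14. The gap between 3′ and 5′ probe sets of the control transcript GAPDH, which widens as RNA breaks down, was 2.89 to 3.30 in 35S-15. It was 2.99, 3.33 and 4.20 in GR14, with array 3 the highest. The gaps of actin and ubiquitin were also highest in that array, and those of cyclophilin and EF1a were not. The part of these gaps in the results was not tested. Among the WT and HFL1 arrays, WT arrays 2 and 3 stood apart. A reporter-gene control probe set read 13.51 and 13.78 there. It read 0.36 to 4.67 in the other 10 arrays, WT array 1 and all transgenic ones included. That goes against a shared wild-type label. The main counts placed against WT and HFL1, and results of the fit on all 12 arrays, are therefore also given without them. WT levels quoted for single genes, and the figures that show WT, include these arrays. Fewer cells of a type and less RNA per cell cannot be told apart in whole seeds.

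The lines differed at 1377 of 28860 probe sets tested (4.77%), with 827 higher in 35S-15 (2.87%) and 550 lower (1.91%), by limma with Benjamini-Hochberg adjusted p under 0.05. The direction split depended on the scaling: with each array centred on its median, 681 were higher and 677 lower. With quantile normalization 846 were higher and 540 lower. All 1377 had no overlap between the 3 and 3 arrays, against 25.2% of all probe sets tested. The median difference of those higher was 1.39 and of those lower -1.20, and 24 exceeded 16-fold upward and 13 downward. Leaving out 1 array reduced the count to 813, 788 or 1076 without 35S-15 array 1, 2 or 3. It was 837, 722 or 1113 without GR14 array 1, 2 or 3. Without the intensity trend in the variance estimate it was 598. Counted by gene, with the probe set of highest mean, 931 of 15721 genes differed (5.92%), 581 higher (3.7%) and 350 lower (2.23%). The gene lists below are read against these gene shares.

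**Figure D1:**
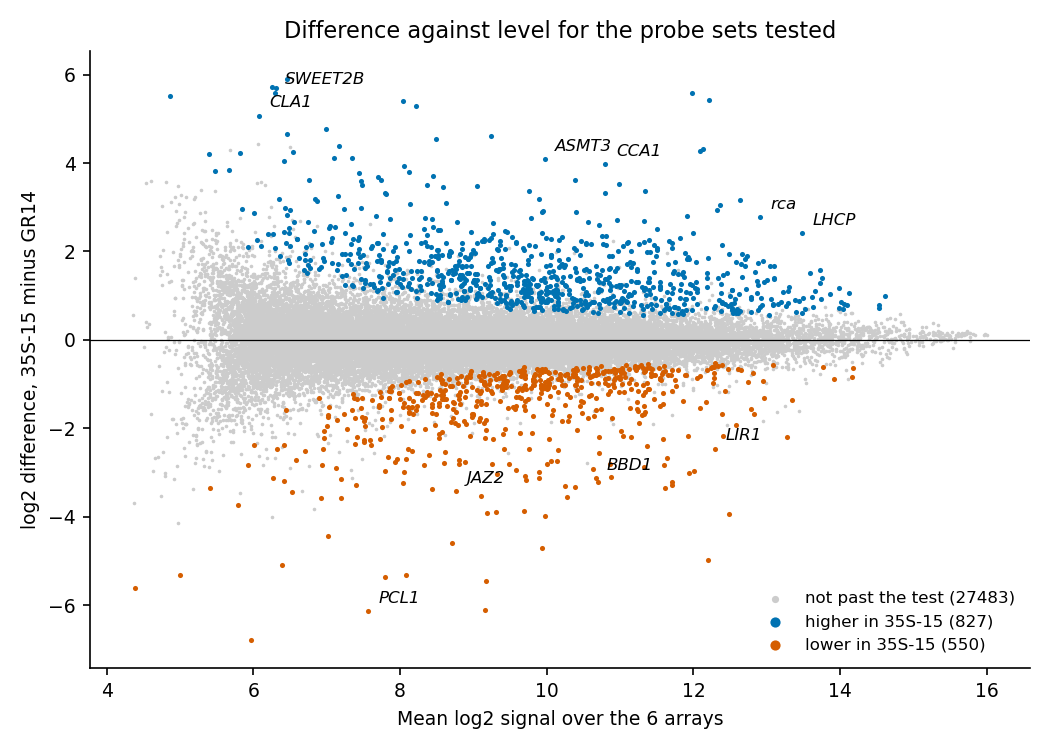
Each point is 1 probe set, with the mean log2 signal over the 6 arrays on the horizontal axis and the log2 difference, 35S-15 minus GR14, on the vertical axis. Colours mark the 827 probe sets higher and the 550 lower in 35S-15; CCA1, ASMT3, rca and LHCP lie high on the right, and PCL1 lies at -6.13.

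For most probe sets that differed, GR14 was the line that departed from the other arrays. In 1149 of the 1377 (83.4%) all 3 GR14 arrays lay outside the range of the 6 WT and HFL1 arrays while 35S-15 did not. The reverse held for 18 (1.31%), both lines lay outside for 33 and neither for 177. The median distance from the mean of WT and HFL1 was 1.16 for GR14 and 0.19 for 35S-15. With WT arrays 2 and 3 left out of the reference, GR14 alone lay outside for 1191 (86.5%) and 35S-15 alone for 21, and with HFL1 as the only reference for 1175 (85.3%) and 30. The median distances without those WT arrays were 1.20 and 0.17. This is a description of probe sets already chosen for differing between the lines, and it carries no test. The same shares over all probe sets tested were not computed, so how often either line lies outside in general is not known. Thus "higher in 35S-15" below mostly describes a level in 35S-15 near that of WT and HFL1 and a lower one in GR14.

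**Figure D2:**
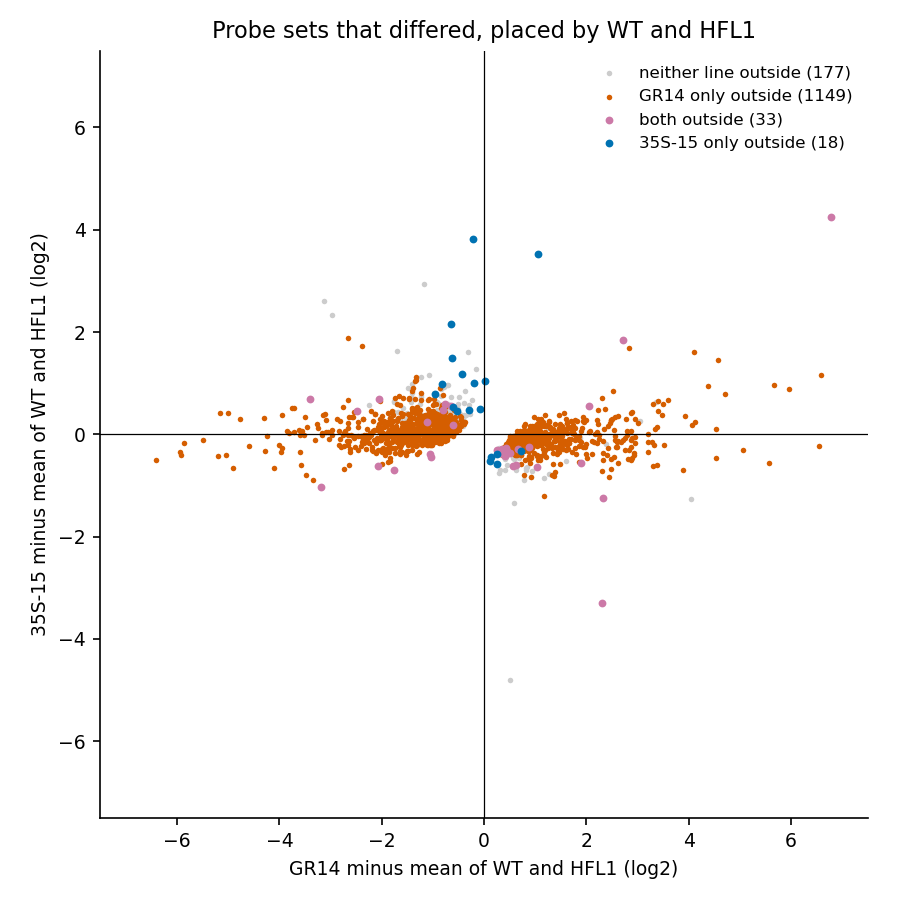
Each point is 1 of the 1377 probe sets that differed, placed by the distance of GR14 (horizontal axis) and of 35S-15 (vertical axis) from the mean of the 6 WT and HFL1 arrays, in log2 units. Most points spread along the horizontal axis, where the median distance is 1.16 against 0.19 on the vertical axis; both distances share the same reference arrays.

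The named gene among those 18 with the widest gap was MT2B, a metallothionein, one of the small cysteine-rich proteins that bind metals. Its probe set read 12.82, 13.94 and 13.19 in 35S-15 and 11.20, 10.14 and 10.20 in GR14. No WT or HFL1 array exceeded 11.73, so the 35S-15 arrays stood alone at the top. The difference was 2.80 ± 0.34 (adjusted p = 0.00195), but the other probe sets of MT2B differed by 0.23 and 0.36 and did not pass the test. The list of metallothioneins, which takes the probe set of highest mean, therefore held no limma call among 7 genes, with 2 at an unadjusted p under 0.05.

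The circadian clock genes held some of the widest gaps. The plant clock runs on CCA1, a transcription factor of the morning, on PRR proteins that repress it through the day, and on the evening factors GI, PRR1 (the rice counterpart of TOC1) and PCL1. Of the 7 clock genes tested, 1 was higher in 35S-15 and 3 were lower, and the same counts held with any 1 array left out. CCA1 stood at 13.23, 12.67 and 12.45 in 35S-15 and at 9.09, 8.69 and 8.66 in GR14. The lowest 35S-15 array was far above the highest GR14 array, and the WT and HFL1 arrays lay between 12.76 and 13.29. CCA1 was thus 15.7-fold higher in 35S-15, a difference of 3.97 ± 0.22 (adjusted p = 3.83e-05).

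The 3 evening genes ran the other way. PCL1 read 6.25, 5.54 and 1.73 in 35S-15 against 10.50, 10.54 and 10.87 in GR14. The GR14 arrays agreed closely, while the 35S-15 arrays were scattered and their mean lay below the array median. The difference of -6.13 ± 0.96 (adjusted p = 0.00724) is therefore imprecise in size, and without the intensity trend its adjusted p was 0.0563. GI stood at 11.22, 11.12 and 11.14 in 35S-15 and at 12.49, 12.58 and 12.58 in GR14, lower by a difference of -1.39 ± 0.13 (adjusted p = 0.000469). PRR1 stood at 9.55, 9.02 and 9.15 against 10.65, 10.50 and 10.49, a difference of -1.31 ± 0.18 (adjusted p = 0.00383). Neither gene's arrays overlapped between the lines.

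The other PRR genes did not pass the test. PRR37 differed by -0.21 ± 0.14 (adjusted p = 0.455), PRR73 by -0.11 ± 0.14 (adjusted p = 0.729) and PRR95 by -0.05 ± 0.28 (adjusted p = 0.949). PRR95 was also the most scattered of the 3, at 13.10, 12.14 and 11.92 in GR14. Of 10 photoperiod and photoreceptor genes tested, none passed by limma (2 at an unadjusted p under 0.05), and their median difference was -0.07.

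**Figure D3:**
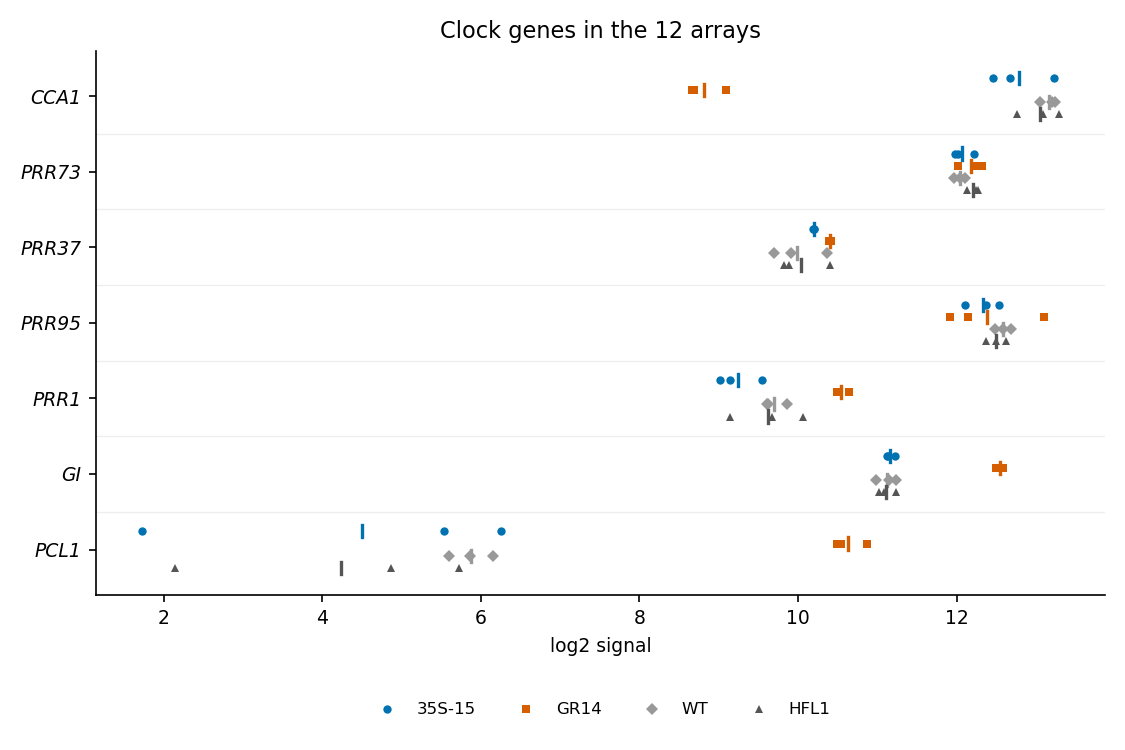
Levels of the 7 clock genes, as log2 signal on the horizontal axis, with a point for each array and a bar for the mean of each group of 3. GR14 stands apart from 35S-15, WT and HFL1 for CCA1, PRR1, GI and PCL1, and the groups lie together for PRR73, PRR37 and PRR95.

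Genes of photosynthesis and of chlorophyll synthesis were mostly higher in 35S-15. Of 16 on the array 15 were tested, 8 were higher and 1 lower, with a median difference of 0.72 against -0.04 over all genes tested. The genes are markers of the green pericarp, and the list kept 7 or 8 higher and 1 lower with any 1 array left out. The Rubisco activase gene rca, whose product keeps the carbon-fixing enzyme active, read 14.17, 14.33 and 14.41 in 35S-15 and 11.56, 11.29 and 11.70 in GR14. Every 35S-15 array was above every GR14 array, by a difference of 2.78 ± 0.15 (adjusted p = 3.6e-05). The other probe sets of rca differed by 3.62, 3.16 and 3.04 and all passed.

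Light harvesting followed. LHCP, a chlorophyll-binding antenna protein gene, stood at 14.42, 14.70 and 14.97 in 35S-15 and at 12.63, 12.04 and 12.16 in GR14. The lines did not overlap, and the difference was 2.42 ± 0.20 (adjusted p = 0.000284). RCABP69, another chlorophyll a/b-binding protein gene, was higher by 1.52, the photosystem I subunit gene PSAG by 2.15 and the subunit gene PSAH by 0.72. PSAH was the least secure of these: it failed with each array left out except 35S-15 array 1, with adjusted p of up to 0.0957. The abundant antenna gene CAB2R (0.34, adjusted p = 0.324) and the Rubisco small subunit gene RBCS (0.51, adjusted p = 0.0742) did not pass.

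Chlorophyll synthesis was represented at a branch point and at a late step. CHLH, the large subunit of the magnesium chelatase that commits the pathway to chlorophyll, read 12.02, 11.85 and 12.06 in 35S-15 and 9.94, 10.11 and 9.83 in GR14. It was higher by 2.01 ± 0.15 (adjusted p = 0.000162), though a second, less bright probe set differed by only 0.34. The other chelatase subunit genes CHLD (0.06) and CHLI (0.68) did not pass the test. PORA and PORB encode the light-dependent reductase of protochlorophyllide. PORA stood at 9.64, 9.58 and 9.54 in 35S-15 and at 7.42, 6.76 and 7.04 in GR14, a difference of 2.51 ± 0.23 (adjusted p = 0.000469), and PORB was higher by 1.12.

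LIR1, a light-regulated chloroplast protein gene that anchors ferredoxin-NADP reductase to thylakoid membranes, went against the rest of the list. It read 10.66, 11.13 and 11.39 in 35S-15 and 13.77, 13.64 and 13.15 in GR14. It was thus lower in 35S-15 by a difference of -2.46 ± 0.22 (adjusted p = 0.000475), without overlap. WT and HFL1 arrays lay at 10.61 to 11.71, beside 35S-15. The reductase gene LFNR1 differed by -0.31 and did not pass.

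**Figure D4:**
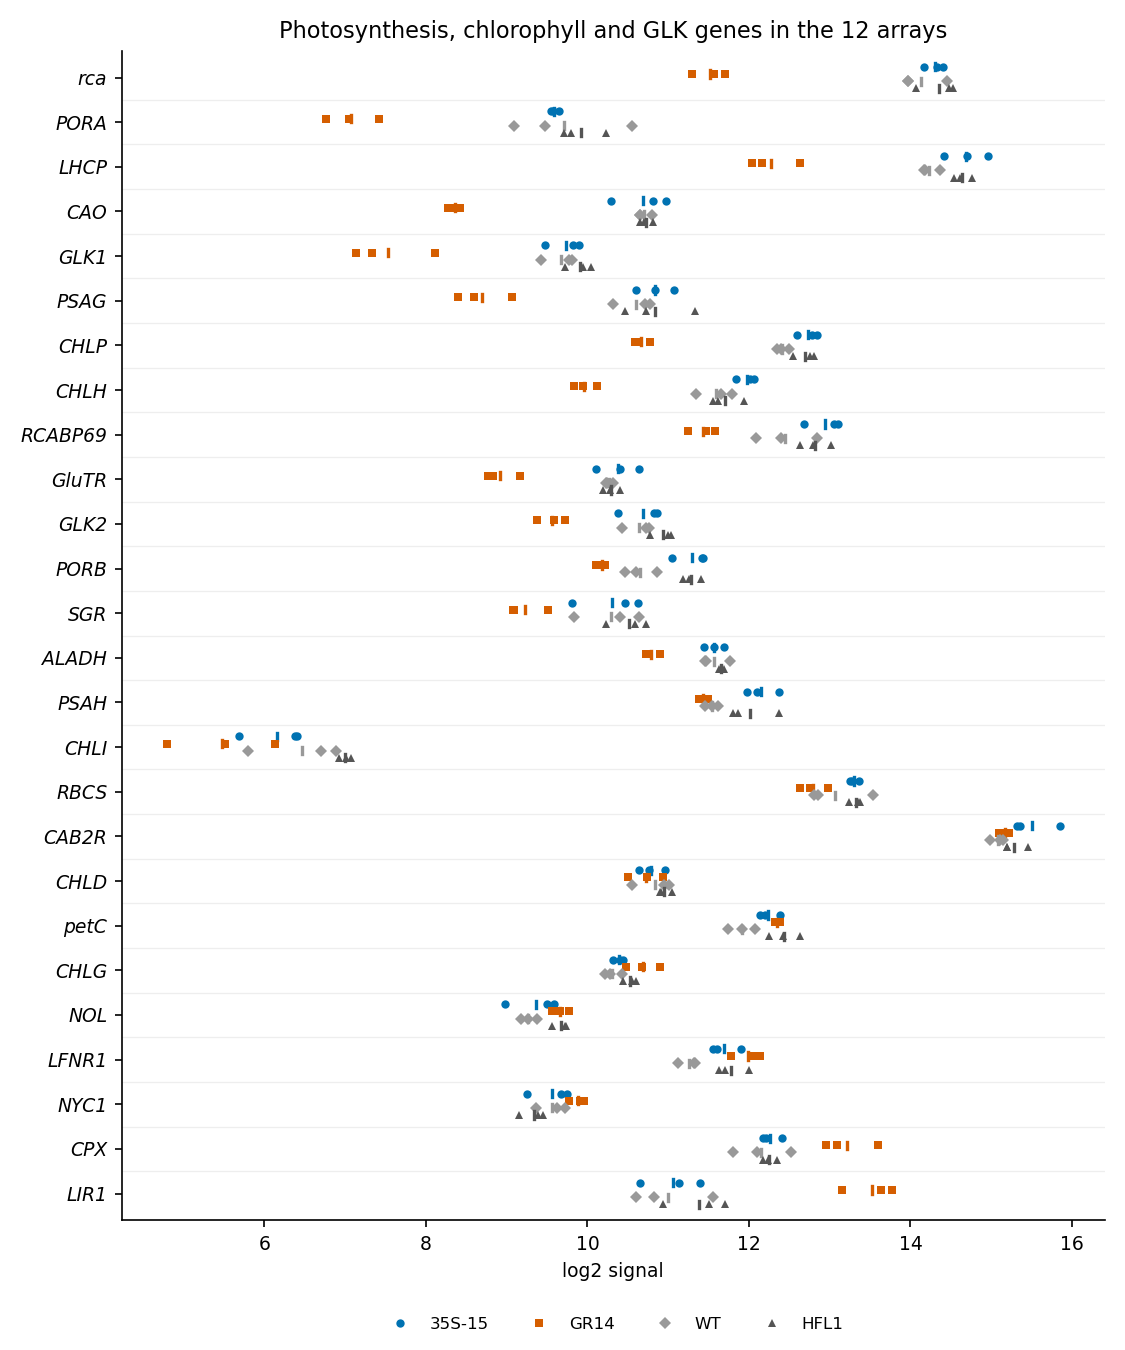
Levels of the photosynthesis list together with GLK and further chlorophyll genes, as log2 signal on the horizontal axis, with a point for each array and a bar for each group mean, ordered by the difference between 35S-15 and GR14. GR14 lies to the left of the other groups for rca, LHCP, PORA, CAO and CHLP and to the right of them for CPX and LIR1; the GLK genes and those of chlorophyll outside the list were chosen after their values were seen.

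Some of the largest upward differences lay outside these lists. SWEET2B, a sugar transporter gene of the SWEET family, read 9.90, 9.15 and 8.21 in 35S-15 and 5.58, 1.81 and 3.08 in GR14. The GR14 arrays were all below the array median, so the size of the difference, 5.59 ± 0.88 (adjusted p = 0.00767), is uncertain. Without 35S-15 array 1 it was 5.19 with an adjusted p of 0.0511. A second, brighter probe set of SWEET2B differed by 3.77 ± 0.47 (adjusted p = 0.00246) and passed with every array left out in turn. CLA1 encodes the first enzyme of the plastid pathway that feeds carotenoids and the chlorophyll side chain. One of its probe sets stood at 8.82, 8.59 and 8.44 in 35S-15 and at 5.15, 2.71 and 2.78 in GR14, a difference of 5.07 ± 0.68. The brighter probe set of CLA1 differed by 1.01 ± 0.21 (adjusted p = 0.0258), and lost its call with each array left out except GR14 array 3, with adjusted p of up to 0.0953. Both were higher in 35S-15, but they differ widely in size.

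APR-like1 read 12.54, 12.73 and 12.97 in 35S-15 and 9.06, 8.59 and 9.99 in GR14, a difference of 3.53 ± 0.31 (adjusted p = 0.000428). A further probe set of it agreed at 3.36, and another, at 2.16, did not pass. PDX12, of the PDX1 family of vitamin B6 synthesis, was at 10.08, 10.44 and 9.80 against 7.11, 7.87 and 7.37, a difference of 2.66 ± 0.25 (adjusted p = 0.000609). The gene written 0sFRO1 in the annotation, a name of ferric reductases that prepare iron for transport, differed by 2.65 ± 0.16 (adjusted p = 6.95e-05). Its levels were 10.71, 10.53 and 10.55 in 35S-15 and 7.99, 7.87 and 7.98 in GR14, with little spread within either line. Hox22, a homeodomain-leucine zipper transcription factor gene, was higher by 2.98 ± 0.43 (adjusted p = 0.00488), with GR14 below the array median.

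Among the genes lower in 35S-15 several belong to stress and hormone signalling. JAZ2, a repressor of jasmonate responses, stood at 7.07, 6.75 and 7.32 in 35S-15 and at 10.31, 10.33 and 10.78 in GR14. It was 10.8-fold lower in 35S-15, a difference of -3.43 ± 0.22 (adjusted p = 9.01e-05), with no overlap. Of 27 jasmonate genes tested the only other call was OPR1, an oxophytodienoate reductase family gene, at 1.16 (adjusted p = 0.0113), and it was lost without 35S-15 array 2 (adjusted p = 0.0516). The remaining JAZ genes lay between -0.97 and 1.06 and none passed.

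BBD1, a bifunctional nuclease gene named for basal defence, read 9.02, 9.07 and 9.24 in 35S-15 and 12.39, 12.04 and 12.29 in GR14. The lines did not overlap, and the difference was -3.13 ± 0.16 (adjusted p = 3.51e-05). SAUR39, an early auxin-response gene, was at 8.09, 7.62 and 7.84 against 10.89, 10.47 and 10.60, a difference of -2.80 ± 0.20 (adjusted p = 0.000134). GLT2, a gene of NADH-dependent glutamate synthase, which forms glutamate from glutamine, differed by -3.19 ± 0.45 (adjusted p = 0.00418). Its 35S-15 levels of 4.42, 4.44 and 5.61 were below the array median, and in the fit on all 12 arrays its adjusted p was 0.0781, but 0.00801 without WT arrays 2 and 3.

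CDKE-1, a cyclin-dependent kinase gene, differed by -2.98 ± 0.60 on 1 probe set (adjusted p = 0.0241) and by -0.10 on a brighter one. Its call was lost without 35S-15 array 1 or 2 and without GR14 array 1 or 2, with adjusted p of up to 0.0966. WRKY76, a transcription factor gene of the pathogen-response family, differed by -2.76 ± 0.66 (adjusted p = 0.0491). It lost the call with every array left out except 35S-15 array 2, with adjusted p of up to 0.159. The other named genes among the largest lower ones were HIRL1 (-1.76), cap2 (-2.12) and SMR1 (-1.93). cap2 lost its call without 35S-15 array 1 or 2 or GR14 array 1, with adjusted p of up to 0.0749. SMR1 lost its call without 35S-15 array 1 or GR14 array 1 or 2, with adjusted p of up to 0.0623.

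Abscisic acid drives seed maturation and dormancy through SnRK2 protein kinases, which the rice annotation calls SAPK, and the transcription factor VP1. Of 15 genes of this hormone tested 2 were lower in 35S-15 and 1 higher, and the median difference was -0.41. Of the 15 differences 12 were negative and 3 positive. By limma 11 had an unadjusted p under 0.05, against 5442 of all 28860 probe sets tested. SAPK9 stood at 8.95, 8.72 and 8.64 in 35S-15 and at 11.40, 11.39 and 11.71 in GR14. It was 6.63-fold lower in 35S-15, a difference of -2.73 ± 0.17 (adjusted p = 6.95e-05). VP1 stood at 10.64, 10.10 and 11.01 against 11.80, 12.28 and 12.15, a difference of -1.50 ± 0.23 (adjusted p = 0.00734), and without the intensity trend its adjusted p was 0.0563. Neither gene's arrays overlapped between the lines. ABA1, a gene of abscisic acid synthesis from carotenoids, was higher by 1.16 (adjusted p = 0.0428), but passed only with all arrays or without GR14 array 1, and its adjusted p otherwise reached 0.144. VP1 was also the only 1 of 13 embryo and aleurone markers that passed, and their median difference was -0.24.

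**Figure D5:**
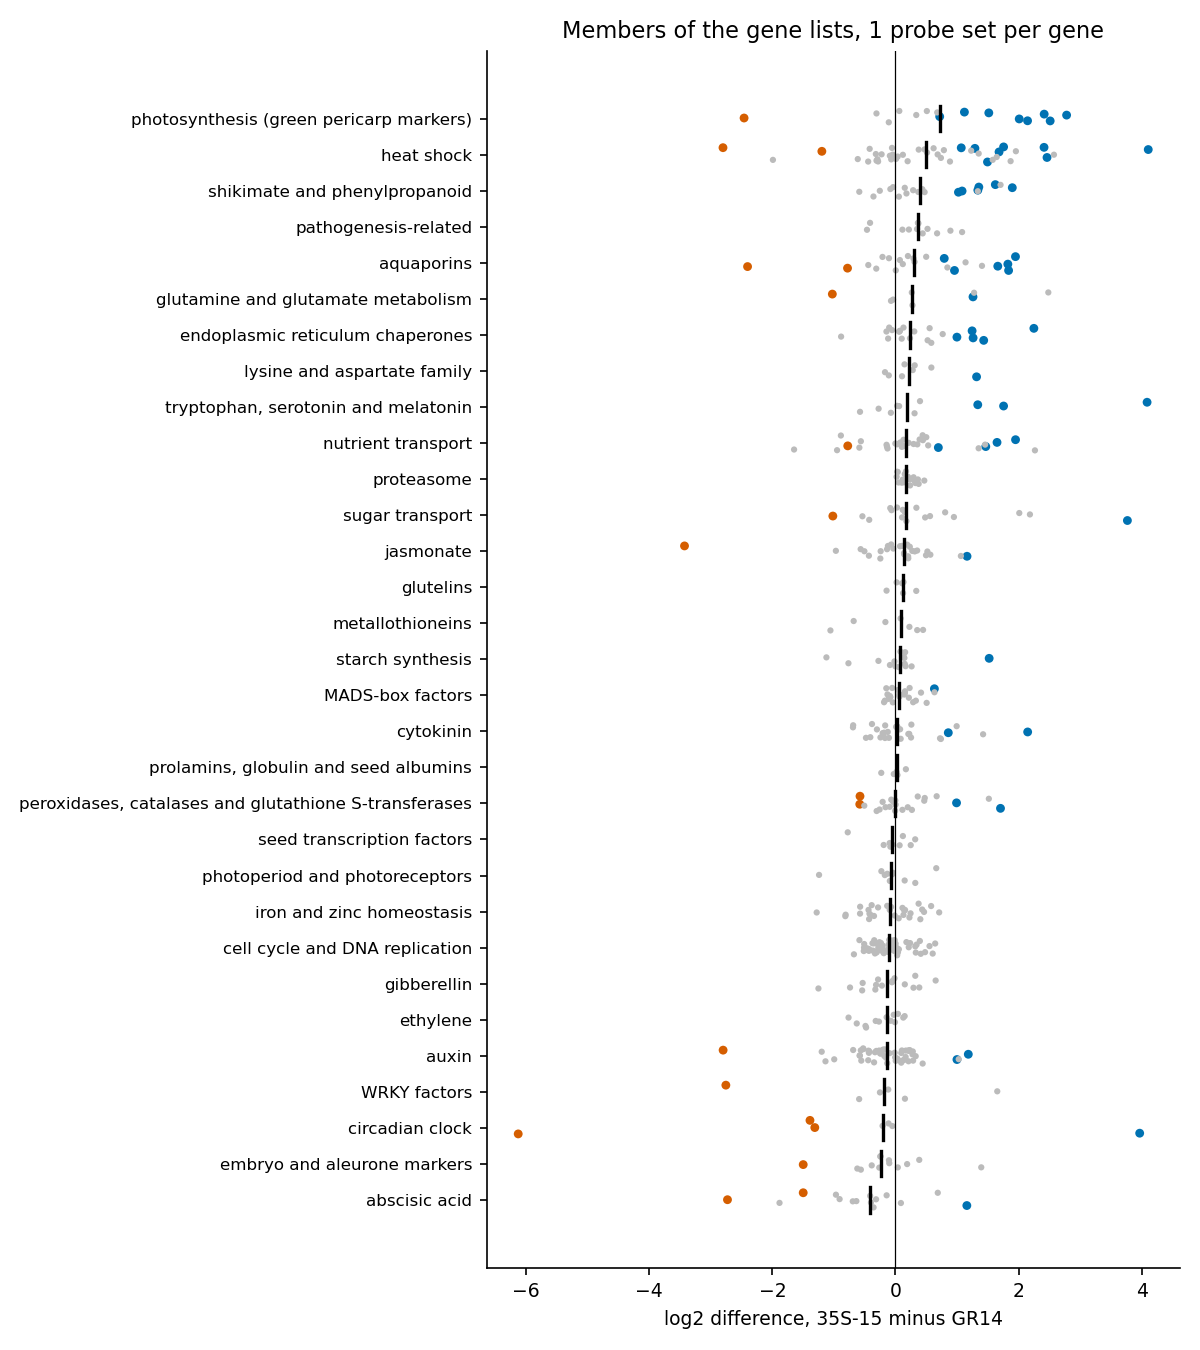
Each point is 1 gene of a list, on the probe set of highest mean, with the log2 difference, 35S-15 minus GR14, on the horizontal axis; large coloured points passed the test, grey ones did not, and the black bars are list medians. Photosynthesis has the highest median, 0.72, and abscisic acid the lowest, -0.41.

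Heat shock genes, whose products keep other proteins folded, leaned upward in 35S-15. Of 42 tested 8 were higher and 2 lower, and the median difference was 0.49. The total of 10 fell to 7 without 35S-15 array 2 and 6 without GR14 array 2. The small heat shock protein gene HSP16.0 read 7.90, 9.93 and 9.62 in 35S-15 and 5.61, 3.66 and 5.85 in GR14. Its difference of 4.11 ± 0.68 (adjusted p = 0.00926) came with widely spread arrays, and without 35S-15 array 2 its adjusted p was 0.0504. HSP17.9B was higher by 1.50 (adjusted p = 0.00874), and the mitochondrial-type disaggregase gene CLPB-M by 1.76.

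Heat stress transcription factor genes moved in both directions. HSF24 was at 10.61, 10.55 and 10.81 in 35S-15 and 8.44, 8.50 and 7.64 in GR14, a difference of 2.46 ± 0.24 (adjusted p = 0.00077). HSF1 was at 10.68, 11.01 and 11.73 against 8.23, 9.39 and 8.56, a difference of 2.41 ± 0.34 (adjusted p = 0.0041). Both were higher in every 35S-15 array on these probe sets, but of 2 dimmer ones for HSF24, 1 differed by 1.69 (adjusted p = 0.0398) and 1 by 0.72 (adjusted p = 0.681). HSF03 was lower, at 8.01, 6.82 and 7.37 in 35S-15 and 10.48, 10.29 and 9.83 in GR14, a difference of -2.80 ± 0.31 (adjusted p = 0.00134). For HSFA2D 1 probe set was higher by 2.74 ± 0.28 (adjusted p = 0.00096), while a brighter one, at -0.09 ± 0.18 (adjusted p = 0.837), did not pass. HSF24, HSF1, HSF03, HSP17.9B and CLPB-M passed with every array left out in turn. The other calls were HSP81-1 (1.07), HSP26.2 (1.68) and HSF05 (1.29), higher, and HSF07 (-1.20), lower. HSP81-1 was lost without GR14 array 2 (adjusted p = 0.0623). The others each lost their calls with at least 4 of the 6 arrays left out singly, at adjusted p of up to 0.14.

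Chaperones of the endoplasmic reticulum fold the storage proteins of the endosperm. Of 21 tested 5 were higher in 35S-15 and 0 lower, with a median difference of 0.24, and 4 or 5 remained higher with any 1 array left out. ERDJ3A, a DnaJ-type co-chaperone gene, read 12.27, 12.36 and 12.93 in 35S-15 and 10.14, 10.60 and 10.07 in GR14. The lines did not overlap, and the difference was 2.25 ± 0.22 (adjusted p = 0.000609). Its relative ERDJ3B was higher by 1.25, DER1, of the machinery that exports misfolded proteins, by 1.43, and the disulfide isomerase gene PDIL2-3 by 1.26. BIP1, the main HSP70 of this compartment, was higher by 1.00 (adjusted p = 0.0489), and lost its call with any array left out except GR14 array 1, with adjusted p of up to 0.155. For these genes the WT arrays were not uniform: DER1 was 9.66 in WT array 1 and 11.18 and 11.83 in WT arrays 2 and 3. In the fit on all 12 arrays DER1 and PDIL2-3 did not pass, at adjusted p of 0.0656 and 0.0771. Without WT arrays 2 and 3 both passed, at 0.00756 and 0.0189. None of the 19 proteasome genes tested passed by limma (4 at an unadjusted p under 0.05). Their median difference was 0.17, and 0.09 with arrays centred on their medians.

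Aquaporins, the channels that carry water and small solutes across membranes, included calls in both directions. Of 27 on the array 22 were tested, 6 were higher in 35S-15 and 2 lower. The total of 8 fell to 5 without 35S-15 array 2. The plasma membrane aquaporin gene PIP1-3 stood at 13.48, 13.88 and 13.53 in 35S-15 and at 11.62, 11.92 and 11.50 in GR14. It was 3.87-fold higher in 35S-15, a difference of 1.95 ± 0.17 (adjusted p = 0.000385). PIP2-2 was higher by 1.83 ± 0.17 (adjusted p = 0.000609) and PIP2-4 by 1.84 ± 0.22 (adjusted p = 0.0019). These 3 passed with every array left out in turn.

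A second, dimmer probe set of PIP2-2 differed by 3.51 but lost its call without any 1 of 35S-15 arrays 1 to 3 or GR14 array 1, with adjusted p of up to 0.115. PIP1-2 (0.79) and PIP1-1 (0.96) were higher by less. PIP1-2 lost its call without GR14 array 1 (adjusted p = 0.0578), and PIP1-1 without 35S-15 array 1 or 2 (adjusted p of 0.0629 and 0.0534). The silicon channel gene Lsi1 was higher by 1.66 and missed the threshold without 35S-15 array 2 (adjusted p = 0.0547). Among vacuolar channels TIP4-1 was lower, at 10.77, 10.09 and 9.66 in 35S-15 against 12.73, 12.30 and 12.69 in GR14. That difference of -2.40 ± 0.26 (adjusted p = 0.00131) was without overlap, and the only other vacuolar aquaporin to pass was TIP1-1, at 0.77 on a dimmer probe set (adjusted p = 0.0472). PIP2-7 was lower by a difference of -0.78 (adjusted p = 0.0404) and lost its call with any array left out, at adjusted p of up to 0.124.

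Transporters of mineral nutrients showed 4 higher and 1 lower among 30 tested. The ammonium transporter gene AMT1 read 10.65, 10.32 and 10.38 in 35S-15 and 8.97, 8.87 and 9.10 in GR14. It was higher by 1.47 ± 0.17 (adjusted p = 0.00145) in all arrays and kept its call with every array left out. The other calls were AMT3-2 at 1.65, the potassium transporter genes HAK27 at 1.95 and HAK18 at 0.70, and the phosphate transporter gene PHT1-1 at -0.77. Each of these lost its call on leaving out at least 1 array: HAK27 without 35S-15 array 1 or 2, AMT3-2 without those or GR14 array 1 or 2, and HAK18 and PHT1-1 with any 1 array left out. The total was 1 without 35S-15 array 1, 1 without 35S-15 array 2, 3 without 35S-15 array 3, and 2 without GR14 array 1 or GR14 array 2.

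Genes of the shikimate and phenylpropanoid pathways, which lead from sugar phosphates to aromatic amino acids and lignin precursors, differed in 1 direction only among those that passed. Of 20 tested 6 were higher and 0 lower, with a median difference of 0.40, and 5 to 7 passed with any 1 array left out. DAHPS1, the entry enzyme of the shikimate pathway, stood at 13.79, 13.37 and 13.45 in 35S-15 and at 12.27, 12.14 and 12.17 in GR14. The difference was 1.34 ± 0.15 (adjusted p = 0.00139). CAD3, a cinnamyl alcohol dehydrogenase of the last step towards lignin alcohols, was at 12.42, 12.75 and 12.16 against 10.60, 10.37 and 10.67, higher by 1.90 ± 0.18 (adjusted p = 0.000538). CAD2 was higher by 1.36 and the coenzyme A ligase genes 4CL3, 4CLL1 and 4CLL4 by 1.62, 1.02 and 1.08. Of these only 4CLL4 lost its call on leaving out 1 array, without 35S-15 array 2 (adjusted p = 0.0617) or GR14 array 2 (adjusted p = 0.0579).

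Tryptophan is the precursor of serotonin and melatonin in rice. Of 10 genes of this route tested 3 were higher in 35S-15. ASMT3, of the family that catalyses the last step to melatonin, stood at 12.10, 12.16 and 11.80 in 35S-15 and at 8.50, 7.33 and 7.96 in GR14. It was higher in 35S-15 by a difference of 4.09 ± 0.27 (adjusted p = 0.000102), and kept its call with every array left out. T5H, which makes serotonin from tryptamine, was higher by 1.34 (adjusted p = 0.0129). It lost its call without 35S-15 array 1 (adjusted p = 0.0538) or GR14 array 2 (adjusted p = 0.0557). ASMT1 was higher by 1.76 (adjusted p = 0.0454) and lost its call with every array left out except GR14 array 1, at adjusted p of up to 0.139. The count of 3 thus became 1 without 35S-15 array 1 or GR14 array 2, and 2 without 35S-15 array 2, 35S-15 array 3 or GR14 array 3. The anthranilate synthase genes, which start tryptophan synthesis, lay between -0.27 and 0.40, and none passed.

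Among the genes of lysine synthesis that a symbol identified, little differed between the lines. DHDPS was not among them. Of 8 lysine and aspartate family genes tested 1 passed, SAMS2, and their median difference was 0.21. SAMS2 makes S-adenosylmethionine, on the methionine branch of the family. It read 13.74, 13.68 and 13.43 in 35S-15 and 12.26, 12.23 and 12.40 in GR14, higher by 1.32 ± 0.14 (adjusted p = 0.00109). A second probe set of SAMS2 differed by 0.45 and did not pass. The genes of the lysine branch were close to 0: LYSA, the decarboxylase that forms lysine, at -0.17 (adjusted p = 0.546), DAPF at -0.11 (adjusted p = 0.706) and AGD2 at 0.15 (adjusted p = 0.628). DAPB1 and DAPB2, of dihydrodipicolinate reductase, were at 0.11 and 0.31. None of these passed, which does not show that the lines are alike in them.

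Nitrogen assimilation had 2 calls among the 8 genes of its list, which did not hold GLT2. That glutamate synthase gene, described above, passed at -3.19 (adjusted p = 0.00418). GLN1-1, a cytosolic glutamine synthetase gene, was at 12.64, 12.47 and 12.28 in 35S-15 and 11.45, 11.46 and 10.70 in GR14, higher by 1.26 ± 0.22 (adjusted p = 0.0119). Without 35S-15 array 1 its adjusted p was 0.0522. GDH2, a glutamate dehydrogenase gene, differed by -1.03 (adjusted p = 0.0231) and passed only with all arrays or without GR14 array 3. With another array left out its adjusted p was up to 0.0774, and none of the 8 passed without 35S-15 array 1.

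The main products of the endosperm did not pass the test. None of 6 glutelin genes passed by limma, with a median difference of 0.12, nor any of 5 prolamin, globulin and albumin genes, and 0 of either list had an unadjusted p under 0.05. The median of the latter, 0.02, changed sign under either other scaling. Both lists had median levels of 15.4 to 15.5 in the 2 lines, near the top of the scale. Not passing does not show that the lines are alike in these genes. Among 15 starch genes the only call was SSII-2, a starch synthase gene, at 1.52 ± 0.27 (adjusted p = 0.0123). It kept its call with every array left out, at adjusted p of up to 0.0496. GBSS-I, the amylose-forming synthase of the endosperm, differed by -0.00 (adjusted p = 0.998). With arrays centred on their medians 2 starch genes were lower as well.

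In sugar transport 2 of 18 genes passed, SWEET2B and the monosaccharide transporter gene MST3, lower by a difference of -1.02 (adjusted p = 0.0193). MST3 lost its call without 35S-15 array 1 (adjusted p = 0.0641) or 35S-15 array 3 (adjusted p = 0.0615). SWEET11 (0.12), SWEET15 (0.81) and SUT1 (0.15), which supply the filling grain with sugar, did not pass.

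Calls among growth-hormone genes were near the 5.92% of all genes. For auxin 3 of 52 passed, with SAUR39 lower and GH3.2 (1.18) and IAA2 (1.00) higher. Both of the latter lost their calls without 35S-15 array 2, GR14 array 1 or GR14 array 2, and each without 1 more 35S-15 array, at adjusted p of up to 0.0749. For cytokinin 2 of 28 passed, the receptor gene HK5 (0.86) and the degrading oxidase gene CKX4 (2.15). HK5 lost its call without 35S-15 array 1 or 2 or GR14 array 1 or 2, and CKX4 without 35S-15 array 2 or 3 or GR14 array 1 or 2. A second probe set of HK5 was higher by 1.25 (adjusted p = 0.0131). No gene passed by limma among 16 for gibberellin and 13 for ethylene, with 2 of each at an unadjusted p under 0.05.

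Peroxidases, catalases and glutathione S-transferases had 2 higher and 2 lower of 24, a median of -0.00, and no member that kept its call with every array left out. Of 24 MADS-box factors 1 passed, MADS1 at 0.63, which lost its call with any array left out. Of 6 WRKY factors WRKY76 alone passed. No gene passed by limma on the probe set of highest mean in 4 further lists, and CDKE-1, described above, passed on a dimmer one in the first of them. At an unadjusted p under 0.05 these held 2 of 59 cell cycle and DNA replication genes, 3 of 30 for iron and zinc homeostasis, 4 of 12 pathogenesis-related genes and 0 of 9 seed transcription factors. The iron and zinc list did not hold the gene written 0sFRO1, described above, which passed at 2.65 and kept its call with every array left out.

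Many of the widest gaps fell on genes without an informative symbol. LOC4326757 read 14.79, 15.08 and 14.44 in 35S-15 and 10.69, 8.39 and 8.50 in GR14, a difference of 5.57 ± 0.52 (adjusted p = 0.000554). It moved from near the top of the scale to well below, and a further probe set of it differed by 5.42. The third, at 5.86 ± 1.47, did not pass (adjusted p = 0.0581), with GR14 arrays scattered from 0.25 to 7.37. LOC4326913 (5.91 and, on a second probe set, 3.68) and LOC4349376 (5.70 and 4.38) were also higher, with the GR14 mean below the array median on each of these probe sets. A probe set with no gene assigned was higher by 5.51, and lost its call without 35S-15 array 1 (adjusted p = 0.112) or 35S-15 array 2 (adjusted p = 0.0735).

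In the other direction a transcript with no gene assigned stood at 6.79, 5.50 and 7.05 in 35S-15 and at 12.02, 11.80 and 11.86 in GR14. Its difference of -5.45 ± 0.35 (adjusted p = 8.85e-05) was accompanied by -6.10 on a second probe set of the same transcript. Another probe set with no gene was lower by a difference of -6.78 ± 0.61, the widest of all those tested that passed, with 35S-15 levels of 1.90 to 3.15, below the array median. LOC4337388 was lower too, by a difference of -5.36. LOC4349379 was at 7.49 or below in every array of both lines, and its difference of -5.62 lost its call without any 1 of the GR14 arrays, at adjusted p of up to 0.158.

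A few probe sets followed the line structure of the series. LOC9268308 stood at 10.96, 10.63 and 11.03 in 35S-15 and at 5.78, 5.13 and 5.81 in GR14 on its brighter probe set, and the other was higher by 5.72. It was at 11.02 to 11.57 in HFL1 and at 4.66 to 6.64 in WT, so it was high in 35S-15 and HFL1 and low in GR14 and WT. For LOC4340325, 1 probe set was at 4.87, 5.86 and 5.57 in 35S-15 and at 10.58, 10.87 and 10.77 in GR14. It was at 10.63 to 10.81 in HFL1 and at 1.81 to 3.86 in WT, so it was high in GR14 and HFL1 and low in 35S-15 and WT. Its difference was -5.31 ± 0.28 (adjusted p = 3.6e-05), while a second probe set of LOC4340325 differed by 0.06. LOC4331398 did not separate the lines, at -0.12 and -0.02 on its probe sets, and was at 12.67 to 13.74 in both lines and at 6.80 or below in WT. The files do not say what these genes are.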

How the data were processed

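Members and gene lists were chosen with earlier results of these data known. The deposited values are linear signal intensity, made with MAS5 per the submitters' processing notes, which name no version. Each column's 2% trimmed mean was 500.1, a sign of scaling by the authors. Arrays have no read depth; their number limits the precision.

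From the deposited intensity, log2 was taken without further normalization. Of 57381 probe sets, 123 AFFX and 64 RPTR controls were dropped, and 28860 that exceeded the array median on 3 or more of the 6 arrays were tested. Under R 4.3.3, limma 3.58.1 (lmFit, then eBayes with intensity-trended variance) compared the lines, two-sided, with Benjamini-Hochberg adjustment over all probe sets tested. The fit was tested on simulated data.

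Names came from the array's annotation, updated with RefSeq ASM3414082v1: 22436 probe sets had 1 gene, 95 several and 34850 none, and 2458 of 17905 genes had an informative symbol. No genome build is named, so no coordinates or sequences are given. The 31 gene lists are searches on symbols, with 11 mistaken matches removed, and take the probe set of highest mean per gene. Named genes were the 14 largest differences each way with an informative symbol, at least 2-fold and without overlap, the 4 lowest p of each list, the 5 largest without a symbol, all clock and lysine genes, and LOC4331398, LOC4340325 and LOC9268308. Others were chosen after their values were seen. No result for a list has a test of its own. Alternatives covered the normalization, filter, offset, probe sets, variance estimate, fit and each array.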

Additional observations from a re-analysis of the deposited data

How the results depend on the processing

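No paired analysis was possible because the labels give no replicate numbers within a line. The count of probe sets that differed ranged from 722 to 1113 with 1 array left out, those higher in 35S-15 from 460 to 682 and those lower from 231 to 431. Without the intensity trend 598 differed, 397 higher and 201 lower. In the fit on all 12 arrays 855 were lower, and 771 with WT arrays 2 and 3 left out of it, an alternative chosen after seeing the data; with a 2-fold minimum 355 were lower. With median centring the split was 681 higher and 677 lower. The other alternatives kept all 3 counts within 1.5 times. Of 163 named probe sets 83 passed, 55 kept the call with every array left out, 55 under every other setting and 50 under all, and no difference that passed changed sign. Without the intensity trend 26 of the 83 lost the call. With 3 arrays a line and no detection calls, levels below the array median limit the size of a difference, as in 94 of the 1377 calls. The causes were not tested.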

Other observations

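Genes around chlorophyll that no list held were looked up by symbol after their values were seen, so the counts here are a description. Both GLK transcription factors, which switch on chloroplast genes, were higher in 35S-15. GLK1 stood at 9.82, 9.89 and 9.47 in 35S-15 and at 8.11, 7.13 and 7.34 in GR14, a difference of 2.20 ± 0.28 (adjusted p = 0.00247), and GLK2 was higher by 1.12 ± 0.19 (adjusted p = 0.0094). The lines did not overlap in either gene. Of 9 further enzymes of chlorophyll and its precursors 5 were higher and 1 lower. GluTR, of the entry step, was higher by 1.46, CAO, which makes chlorophyll b, by 2.33, and CHLP, which makes the phytyl side chain, by 2.07. CHLP was at 12.78, 12.84 and 12.59 against 10.77, 10.59 and 10.64 (adjusted p = 9.71e-05). CPX, a coproporphyrinogen oxidase gene, was lower by a difference of -0.95 (adjusted p = 0.0193). GluTR, CAO, CHLP and both GLK genes kept their calls with every array left out. Without the intensity trend, GLK2 missed the threshold (adjusted p = 0.0539). ALADH (0.77) and SGR (1.08), also higher, lost their calls with 3 and 4 of the arrays left out in turn, and CPX with 2. The total of 6 was 3 without 35S-15 array 1 or 2 and 4 without GR14 array 2.

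In all, 12 families were looked up this way, GLK and the chlorophyll enzymes included, and none of the others held more than 4 calls. Among 22 beta-glucosidase genes, whose products release sugars from conjugates, BGLU22 (1.61), BGLU19 (2.50) and BGLU16 (2.22) were higher and kept their calls with every array left out. The expansin genes EXPB6 (1.37) and EXPB7 (1.24), which encode cell wall-loosening proteins, were 2 of 17 tested and also kept theirs. Without the intensity trend BGLU16 and EXPB7 missed the threshold, at adjusted p of 0.0701 and 0.0659. Of 6 genes of methionine salvage and the entry to polyamines 3 were higher, ARD' 4 (1.57), ADI1 (0.92) and AdoMetDC (0.72). AdoMetDC lost its call without 35S-15 array 1 or 3 or GR14 array 1, at adjusted p of up to 0.0799, and with median centring (adjusted p = 0.0517). Of 55 PP2C phosphatase genes OsPP2C12 (-1.17) and OsPP2C11 (-1.40) were lower and OsPP2C39 (0.67) higher, the last losing its call with any array left out. None of 24 cellulose synthase and related genes passed by limma, with 4 at an unadjusted p under 0.05. Carotenoid and plastid isoprenoid enzymes had 3 higher of 7, and plastid proteases 3 higher and 1 lower of 12. BASS transporters had 2 higher of 5, PDX genes 2 of 2 and calcineurin B-like-interacting kinases 1 of 22. With 1 array left out, totals fell as low as 0 for the carotenoid enzymes, the BASS transporters and the kinases. They fell to 1 for PDX and as low as 2 for the proteases.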
